A study of Homo sapiens with 36 samples.

Results

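Gene expression after 8 h with a dimerizing ligand was compared between ATF4 knockout (KO) cells and wild-type (WT) cells, in 3 RNA sequencing libraries of each. These 6 of the 36 libraries of the series were chosen by their labels for genotype, treatment and time. All of them came from U2OS, a human osteosarcoma line, that stably expressed Dmr-PERK, the eIF2α kinase domain of mouse PERK joined to a DmrB domain. AP20187, called the dimerizer, brings DmrB domains together, and it was added at the same labelled dose in KO and WT wells, 8 h before collection. No unit for that dose appears in the labels. Cells of both genotypes had been kept in serum-containing medium with added non-essential amino acids and β-mercaptoethanol. Untreated KO cells and untreated WT cells (0 h, 3 libraries each) served as the baseline. The comparison asks how the transcriptome under an active eIF2α kinase differs when ATF4 is missing.

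The labels do not say whether the KO line is a single clone, whether the 3 libraries of a group came from independent cultures, or which part of ATF4 was disrupted. P-values therefore measure the spread between wells and do not separate ATF4 loss from other differences between the 2 lines. Cells without Dmr-PERK and later untreated wells were not among the groups, so the ligand, the hours in culture and the kinase cannot be told apart. In bulk RNA, fewer cells with a transcript and less transcript per cell cannot be told apart either.

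PERK is one of the kinases that phosphorylate eIF2α, which lowers the initiation of most translation and raises the translation of ATF4 mRNA. ATF4 is a bZIP transcription factor that pairs with C/EBP proteins and binds C/EBP-ATF response elements (CAREs) near genes of amino acid supply, tRNA charging and stress signalling. Together these steps are called the integrated stress response (ISR), and several ATF4 targets, CHOP and TRIB3 among them, feed back on the response.

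Total counts were 12082483 to 14305551 in the KO libraries and 8608783 to 11827083 in the WT libraries. Mitochondrial transcripts took 4.68 to 4.75% of counts in KO and 4.80 to 4.86% in WT. Of the 57665 genes in the tables, 19043 had enough counts to be tested. Levels are given as CPM, counts scaled to a common library size. Markers of the bone and mesenchymal lineage summed to 4430 to 4500 CPM in KO and 4070 to 4240 CPM in WT. Nearly all of that sum came from VIM, SPARC and COL1A1, with means of 2100, 1130 and 962 CPM in KO. Of the 12 genes on that list 9 could be tested, and the bone genes SP7 and IBSP had means under 0.1 CPM in both genotypes. COL1A2 had means of 0.384 CPM in KO and 0.416 CPM in WT, and BGLAP 0.231 and 0.46 CPM. Blood markers summed to 2.72 to 3.23 CPM in KO and 2.00 to 3.55 CPM in WT, with LYZ, CD3E, HBA1 and HBB at 0 in all 6 libraries. Endothelial markers summed to 2.81 to 3.99 CPM in KO and 2.94 to 3.41 CPM in WT, and neural markers to 75.1 to 79.0 CPM in KO and 77.3 to 85.8 CPM in WT. Epithelial markers summed to 1080 to 1110 CPM in KO and 1020 to 1040 CPM in WT, nearly all of it from the keratin genes KRT18 and KRT8. The part of these markers in the results below was not tested.

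At 8 h KO cells had far less mRNA of the genes that supply amino acids, charge tRNAs and carry the stress response, and slightly more mRNA of many other genes. CHAC1 was 158-fold, SLC7A11 98.8-fold and PHGDH 32.5-fold lower in KO cells. DNA replication and mitosis genes were modestly lower in KO, while lysosomal, interferon, early response and ribosome assembly genes were modestly higher. The replication, mitosis, lysosomal and interferon lists differed the same way without the dimerizer, with median log2 differences of −0.44, −0.35, 0.2 and 0.23. Ribosome assembly genes had a median of 0.12 at 8 h and −0.1 at 0 h. ATF4 mRNA itself did not separate the genotypes. Of the 19043 genes tested, 3825 were called higher in KO (20.1%) and 2769 lower in KO (14.5%), together 34.6%, at an adjusted p under 0.05 with edgeR's quasi-likelihood test and Benjamini-Hochberg adjustment. The calls of at least 2-fold ran the other way, with 326 genes higher (1.71%) and 549 lower (2.88%). The median log2 difference over all tested genes was 0.02. Here and below a difference is the log2 ratio of KO over WT from the fit, given with its standard error. Limma on log2(TPM + 1) called 1542 genes higher and 1515 lower, which is an even split of the directions. Its spread per gene came from all 36 libraries, including untreated KO libraries whose TPM did not match their own counts best. The edgeR fit of the 6 libraries alone called 3163 higher and 3010 lower. At a required change above 1.5-fold, 225 genes were higher and 422 lower. In 8409 genes (44.2%) the 3 KO and the 3 WT libraries did not overlap. Protein-coding genes were called in both directions, with 3602 higher and 2241 lower of 14420 tested. Antisense genes, whose reads depend on a strand setting that the submitters' notes do not name, had 36 higher (2.89%) and 131 lower (10.5%) of 1244, both shares below those of all tested genes. By at least 2-fold, 18 of the 1244 were higher and 53 lower.

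ATF4, at chr22:39519695-39522685 on the plus strand (GRCh38, GENCODE 29), had 739, 702 and 739 CPM in the KO libraries and 720.5, 707 and 746 CPM in the WT libraries. The groups overlapped, and the log2 difference was 0.00 ± 0.03 (edgeR adjusted p = 0.94). Gene-level counts include any transcript from a disrupted allele, so this level does not check the knockout. Among untreated cells ATF4 was lower in KO, at 259, 274 and 265 CPM against 310.1, 323 and 322 CPM in WT. EIF2AK3, which encodes PERK, had 902, 942 and 940.4 CPM in KO and 778, 771 and 813 CPM in WT, a difference of 0.24 ± 0.03 (edgeR adjusted p = 3.96e-09). It was higher in KO without the dimerizer as well, by 0.33 ± 0.03. Whether reads of the Dmr-PERK construct are among these counts was not tested.

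**Figure D1:**
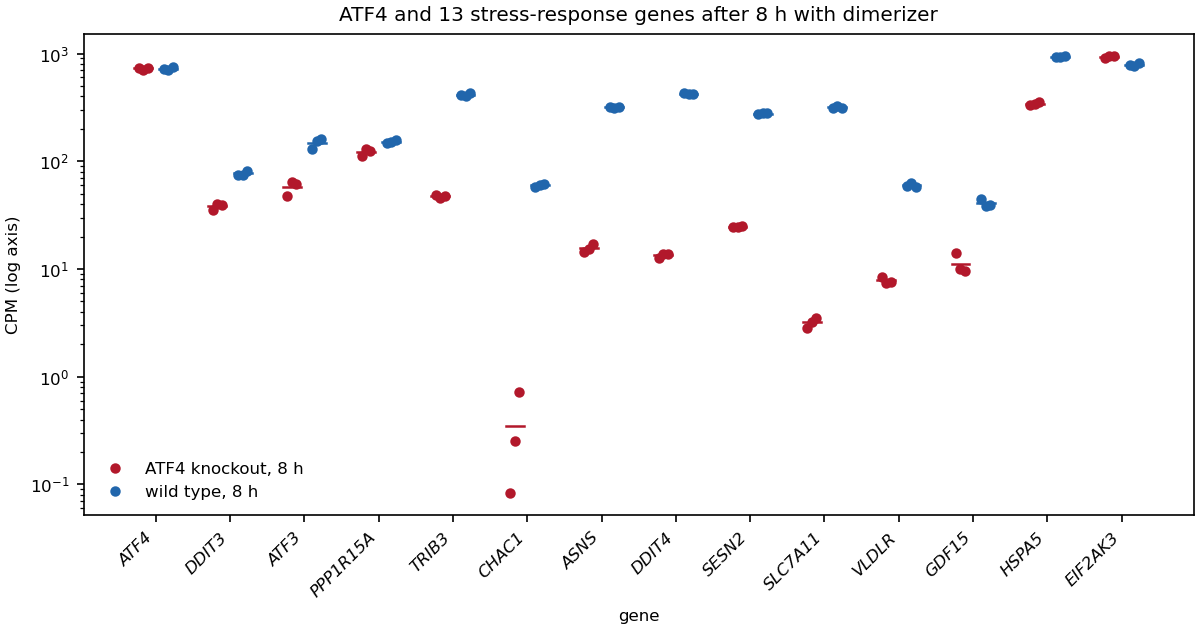
Level of ATF4 and 13 stress response genes at 8 h in CPM on a log axis, with a point for each library, KO in red on the left and WT in blue on the right of each gene, and a line at the mean. ATF4 overlaps between the genotypes and EIF2AK3 is higher in KO, while the other 12 genes are lower in all 3 KO libraries than in any WT library.

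The plot of 14 stress response genes by library shows how far the genotypes lay apart at 8 h. CHAC1, at chr15:40952962-40956519 on the plus strand, encodes an enzyme that degrades glutathione. It had 0.0825, 0.255 and 0.718 CPM in the KO libraries and 58.2, 59.9 and 62.0 CPM in the WT libraries, 158-fold lower in KO (log2 −7.30 ± 0.19, edgeR adjusted p = 5.48e-31). SLC7A11, the cystine importer gene at chr4:138164097-138242349 on the minus strand, had 2.81, 3.23 and 3.52 CPM in KO and 309, 327 and 315 CPM in WT, 98.8-fold lower in KO (−6.63 ± 0.07). Each gene was close to silent in KO cells and varied little among the WT libraries.

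DDIT4, whose product REDD1 restrains mTORC1, had 12.6, 13.7 and 13.7 CPM in KO and 432, 418 and 425 CPM in WT (−4.99 ± 0.08). ASNS, the asparagine synthetase gene at chr7:97852118-97872542 on the minus strand, had 14.3, 15.4 and 16.9 CPM in KO and 320.0, 314 and 318 CPM in WT (−4.35 ± 0.06). SESN2, a sestrin that senses leucine and restrains mTORC1, had 24.5, 24.5 and 24.9 CPM in KO and 272, 279 and 279 CPM in WT (−3.49 ± 0.07). DDIT4 was 31.8-fold, ASNS 20.4-fold and SESN2 11.2-fold lower in KO, and no KO library came near a WT library. TRIB3, a pseudokinase that dampens the response, had 48.9, 45.8 and 47.5 CPM in KO and 409.6, 406 and 430.1 CPM in WT (−3.13 ± 0.05). VLDLR, a lipoprotein receptor, had 8.50, 7.47 and 7.61 CPM in KO and 59.1, 62.4 and 57.4 CPM in WT (−2.92 ± 0.08).

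A smaller gap separated the genotypes in the classical signalling genes. GDF15, a stress cytokine, had 13.9, 9.93 and 9.62 CPM in KO and 45, 38.6 and 39.6 CPM in WT (−1.88 ± 0.11). ATF3, a repressing bZIP factor, had 47.5, 63.5 and 61.4 CPM in KO and 131, 153 and 162 CPM in WT (−1.38 ± 0.11). DDIT3, which encodes CHOP, had 34.9, 40.2 and 39.6 CPM in KO and 75, 73.8 and 82.0 CPM in WT (−1.01 ± 0.07). These 3 genes kept a clear level in KO cells, and the KO libraries lay below all WT libraries. HSPA5, which encodes the ER chaperone BiP, had 335, 339 and 355 CPM in KO and 925, 921 and 956 CPM in WT, 2.72-fold lower in KO (−1.45 ± 0.03). PPP1R15A, whose product GADD34 directs a phosphatase to eIF2α, had 113, 129 and 124 CPM in KO and 149, 151 and 156 CPM in WT, a log2 difference of −0.32 ± 0.05 (edgeR adjusted p = 6.07e-06). With limma on log2(TPM + 1) the PPP1R15A difference was −0.33 and no longer passed (adjusted p = 0.15).

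Gene lists are described by the members with enough counts to be tested, 741 of 779 entries over 36 lists. Of the 27 genes listed as ISR transcription factors and effectors, 25 were lower in KO and 0 higher, where 14.5% of all tested genes were lower, and 20 of them were lower by at least 2-fold. Their median log2 difference was −1.88, against 0.02 over all genes. The other 2, named after their values were seen, were the cell cycle inhibitor CDKN1A at −0.10 ± 0.04 and the ubiquitin ligase adaptor KLHL24 at −0.07 ± 0.14, which did not pass. At 0 h 17 of the 27 were lower in KO and 4 higher, with a median of −0.36. Among all tested genes 11.9% were lower and 11.6% higher at 0 h. The alanine aminotransferase gene GPT2 had 23.2, 24.1 and 23.2 CPM in KO and 208, 195 and 195 CPM in WT (−3.08 ± 0.06). FGF21, a secreted metabolic hormone singled out here after its values were seen, had 0 counts in the 3 KO libraries together and 98 in the WT libraries, at least 39.7-fold lower in KO when the 0 is read as 3 counts over the group. Among 21 genes listed as ATF4-related bZIP factors 8 were lower and 4 higher, with a median of 0. JDP2, a repressor of AP-1 sites, had 3.96, 4.84 and 4.24 CPM in KO and 52.6, 50.9 and 54.2 CPM in WT (−3.60 ± 0.11). CEBPB differed by −1.40 ± 0.06 and CEBPG by −1.01 ± 0.05, both partners of ATF4. CREM (0.39 ± 0.08), CREB3 (0.30 ± 0.05), CREB1 (0.22 ± 0.05) and CEBPZ (0.16 ± 0.03) were slightly higher in KO. CEBPZ is on the list by its symbol and is not a bZIP factor. On log2(TPM + 1) with limma, CREM (adjusted p = 0.19), CREB1 (0.22) and CEBPZ (0.11) did not pass.

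Promoter sequences of the strongly lower genes are shown because ATF4 acts through the CARE, whose core was searched as TGATGNAA, or TTNCATCA when read on the opposite strand. The windows are RefSeq sequence of GRCh38.p14 from 250 bases before to 50 bases after the start of a gene, written 5′ to 3′ on its strand, with matches in capitals. Of 34 genes looked up, namely the 14 stress response genes, the most reduced genes of all tested and the named lower members of 4 lists, 28 had a promoter in the table and 6 of these held a match: CHAC1, ASNS, MARS, ATF3, BCAT1 and AARS. The whole window is given for CHAC1 (chr15:40953221-40953520, plus strand, match from base −209), ASNS (chr7:97872359-97872658, minus strand, match from base −68) and MARS (chr12:57487818-57488117, plus strand, match from base −4), 3 genes of different roles. Bases are counted from the gene's start at 0.
CHAC1: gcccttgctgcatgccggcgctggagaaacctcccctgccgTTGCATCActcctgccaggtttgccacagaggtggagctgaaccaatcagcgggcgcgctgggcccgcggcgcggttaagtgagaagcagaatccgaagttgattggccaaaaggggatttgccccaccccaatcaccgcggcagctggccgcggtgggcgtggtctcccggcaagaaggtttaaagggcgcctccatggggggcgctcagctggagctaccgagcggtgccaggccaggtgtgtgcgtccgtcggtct
ASNS: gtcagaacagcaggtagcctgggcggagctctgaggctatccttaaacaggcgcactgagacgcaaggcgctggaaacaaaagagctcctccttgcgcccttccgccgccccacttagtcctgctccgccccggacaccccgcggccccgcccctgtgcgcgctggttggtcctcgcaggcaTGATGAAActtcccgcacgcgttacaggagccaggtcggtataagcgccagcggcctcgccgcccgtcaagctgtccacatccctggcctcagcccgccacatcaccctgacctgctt
MARS: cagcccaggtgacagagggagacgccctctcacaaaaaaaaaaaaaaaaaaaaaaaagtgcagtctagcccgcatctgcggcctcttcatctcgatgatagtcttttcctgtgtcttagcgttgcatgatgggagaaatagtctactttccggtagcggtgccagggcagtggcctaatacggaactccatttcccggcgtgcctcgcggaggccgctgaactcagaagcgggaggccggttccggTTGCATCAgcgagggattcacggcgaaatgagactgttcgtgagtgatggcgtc

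For the other 3, a stretch of 30 bases around the match is enough to compare the core. The ATF3 match began at base −191 of chr1:212565157-212565456 (plus strand), the BCAT1 match at base −48 of chr12:24949052-24949351 (minus strand) and the AARS match at base −187 of chr16:70289457-70289756 (minus strand).
ATF3: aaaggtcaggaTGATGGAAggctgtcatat
BCAT1: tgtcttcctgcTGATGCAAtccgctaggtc
AARS: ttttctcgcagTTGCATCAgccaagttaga

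Across the tested genes with a promoter in the table, 241 of 12581 held the core (1.92%), and among all 27305 promoters 3.67% did. Of genes lower in KO by at least 2-fold, 34 of 291 held it (11.7%), and of genes lower by less, 41 of 1631 (2.51%). Genes higher in KO held it in 40 of 2959 cases (1.35%), genes higher by at least 2-fold in 7 of 203 (3.45%), and genes not called in 126 of 7700 (1.64%). By role, 6 of 16 cytosolic tRNA synthetase genes held the core, 4 of 16 amino acid and one-carbon synthesis genes, 4 of 17 amino acid transporter genes and 4 of 21 ISR genes, against 0 of 26 ribosome biogenesis genes and 0 of 34 DNA replication genes. A match describes these letters only, and DDIT4, SESN2 and PHGDH, which had none in this window, were among the most reduced genes.

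Enzymes that make serine, glycine, asparagine and one-carbon units formed a widely reduced group. Of 24 genes on the list, 19 were lower and 2 higher in KO, with a median of −1.53 and 13 lower by at least 2-fold. Without the dimerizer 22 of the 24 were already lower and 1 higher, with a median of −0.67. PHGDH, which starts serine synthesis, had 6.19, 8.32 and 8.40 CPM in KO and 260.4, 243 and 247 CPM in WT (−5.02 ± 0.07, edgeR adjusted p = 4.7e-41). PSAT1, the following enzyme, had 6.27, 5.18 and 6.68 CPM in KO and 153, 154 and 155 CPM in WT (−4.66 ± 0.07). Both were thus at a few percent of WT with tight replicates. BCAT1, which transaminates branched-chain amino acids, had 50.4, 52.4 and 53.4 CPM in KO and 290.4, 298 and 291 CPM in WT (−2.49 ± 0.04). CTH, which makes cysteine from cystathionine, had 3.30, 3.48 and 3.45 CPM in KO and 86.7, 83.1 and 89.6 CPM in WT (−4.66 ± 0.08). GLUL, the glutamine synthetase gene, went against the group with 19.1, 16.4 and 19.5 CPM in KO and 2.58, 5.26 and 2.77 CPM in WT (2.35 ± 0.15).

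Import followed the same direction in part. Of 20 amino acid transporter genes, 11 were lower and 2 higher in KO, with a median of −0.70. At 0 h 10 were lower and 5 higher, with a median of −0.12. Besides SLC7A11, the glycine transporter gene SLC6A9 had 3.63, 3.82 and 3.81 CPM in KO and 87.0, 82.4 and 82.4 CPM in WT (−4.48 ± 0.08). SLC1A4, a transporter of small neutral amino acids, had 10.8, 14.7 and 11.7 CPM in KO and 157, 151 and 152 CPM in WT (−3.63 ± 0.07). SLC1A5, the main glutamine importer, had 117, 115 and 116 CPM in KO and 449, 438 and 445 CPM in WT (−1.93 ± 0.04). All 3 were separated from WT by far more than the spread between wells. SLC7A6, an exchanger of cationic for neutral amino acids (0.28 ± 0.04), and SLC36A1, a proton-coupled transporter of lysosomes (0.38 ± 0.06), were higher in KO, and neither passed on log2(TPM + 1) with limma (0.01, adjusted p = 0.97 for SLC7A6 and 0.32, adjusted p = 0.21 for SLC36A1).

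Genes listed as cytosolic tRNA synthetases were widely lower in KO, while those listed as mitochondrial had few calls. GARS and KARS, counted in the cytosolic list, encode the mitochondrial enzymes as well. Of 20 cytosolic tRNA synthetase genes, 12 were lower and 1 higher in KO, with a median of −0.82. At 0 h 15 were lower and 1 higher, with a median of −0.31. AARS, which charges alanine tRNA, had 71.7, 73.4 and 72.9 CPM in KO and 393, 393 and 394 CPM in WT (−2.44 ± 0.04, edgeR adjusted p = 2.47e-39). GARS, for glycine, had 194, 196 and 200.2 CPM in KO and 882, 862 and 874 CPM in WT (−2.15 ± 0.03), YARS, for tyrosine, differed by −2.46 ± 0.04 and MARS, for methionine, by −1.96 ± 0.03. The KO libraries lay below the WT libraries in all 4. KARS, for lysine, stood apart as the one higher gene, with 209, 216 and 213 CPM in KO and 206, 193 and 205 CPM in WT (0.08 ± 0.03). That call was lost without any one of 5 libraries and with DESeq2, and its size was 0.04 without KO replicate 2. The 17 mitochondrial synthetase genes had a median of −0.04, with 2 lower, TARS2 (−0.24 ± 0.07) among them, and IARS2 (0.18 ± 0.03) and HARS2 (0.20 ± 0.07) higher. TARS2 no longer passed without KO replicate 3 (−0.15), and HARS2 lost its call without any one of 4 libraries. Whether the 2 sets of synthetases differ was not tested.

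**Figure D2:**
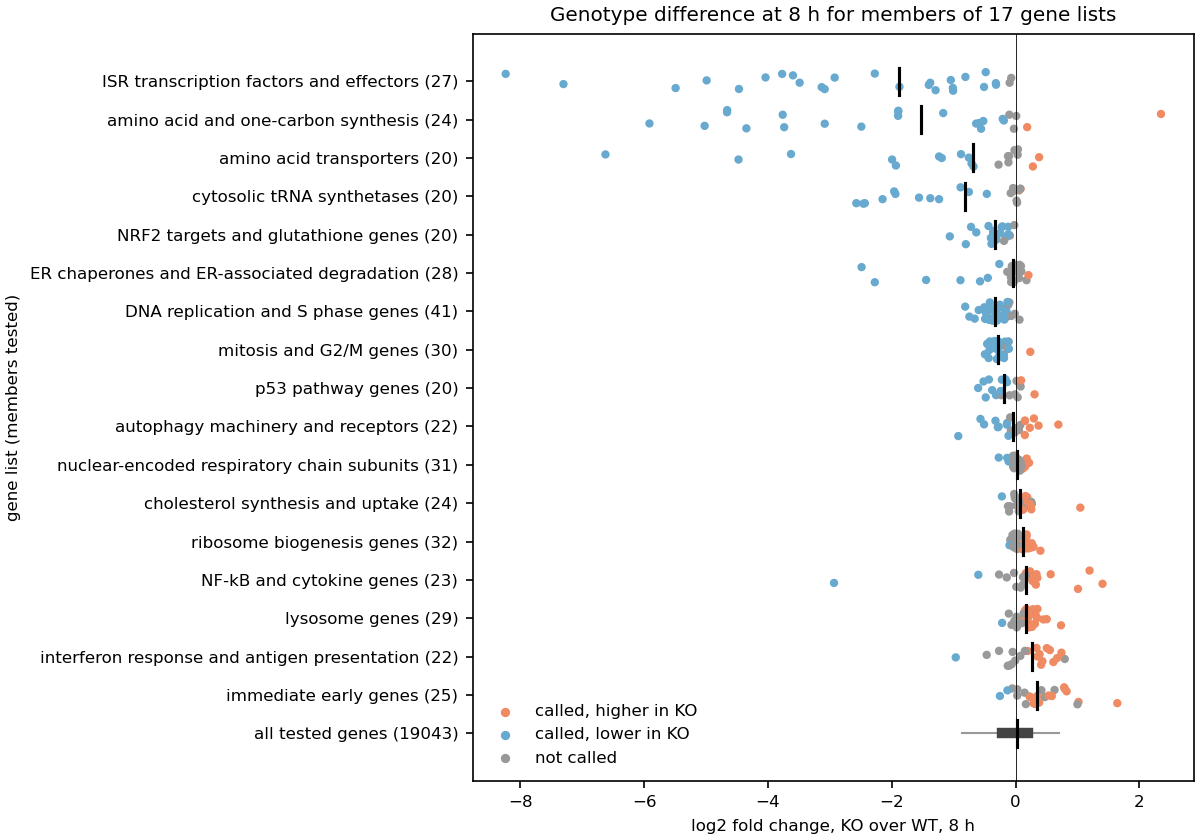
Log2 difference, KO over WT at 8 h, of the tested members of 17 gene lists, with a point for each gene, colour for the call and a black bar at each median. The bottom entry gives all 19043 tested genes as the median, the quartiles (thick bar) and the range from the 5th to the 95th percentile (thin line); the 4 lists at the top lie to the left with medians from −0.70 to −1.88, and immediate early genes lie to the right with a median of 0.35.

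The plot of gene lists places the remaining groups nearer to 0. Over all tested genes 20.1% were higher and 14.5% lower. Among protein-coding genes alone, 25% were higher and 15.5% lower. Of the 10314 genes above 10 CPM, 4092 had a log2 difference below 0. Genes of antioxidant defence, the targets of NRF2 and the glutathione enzymes, were lower in 17 of 20 cases and higher in 0, with a median of −0.33. TXNRD1, a thioredoxin reductase, had 480.0, 524 and 532 CPM in KO and 872, 905 and 904 CPM in WT (−0.80 ± 0.04). GCLM, a subunit of the enzyme that starts glutathione synthesis, differed by −0.72 ± 0.05 and SRXN1, which repairs oxidised peroxiredoxins, by −0.63 ± 0.04. HMOX1, the haem oxygenase gene, had 13.9, 13.2 and 15.2 CPM in KO and 28.5, 27.8 and 32.1 CPM in WT (−1.06 ± 0.08). In untreated cells HMOX1 ran the other way, with 26.6, 25.9 and 24.3 CPM in KO and 18.8, 17.9 and 17.4 CPM in WT (0.49 ± 0.08).

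ER folding genes split into a few that were strongly lower and many that were level. Of 28 chaperone and ER-associated degradation genes, 7 were lower and 1 higher in KO, with a median of −0.04. XBP1, a transcription factor of the unfolded protein response, had 54.0, 57.0 and 59.1 CPM in KO and 303, 322 and 329.8 CPM in WT (−2.49 ± 0.05). HERPUD1, an adaptor of ER-associated degradation, had 34.2, 32.8 and 35.3 CPM in KO and 164, 164 and 168 CPM in WT (−2.27 ± 0.05). With HSPA5 these were the members with the largest gaps. The lectin chaperone gene CANX differed by −0.57 ± 0.03; it lies at the end of chromosome 5q, in a stretch where most genes were lower in KO with and without dimerizer. OS9, a lectin of ER-associated degradation, was higher by 0.21 ± 0.03. A fit of the 6 libraries alone called 11 members lower. Heat shock genes were higher in 8 of 22 cases and lower in 2, with a median of 0.08, where 25% of protein-coding genes were higher. HSPB8 differed by 0.63 ± 0.05, HSPA8 by 0.34 ± 0.03, DNAJA1 by 0.26 ± 0.03 and HSPH1 by 0.26 ± 0.04, all chaperones or their partners. On log2(TPM + 1) limma called 5 of the list higher. The mitochondrial chaperonin HSPD1 (−0.09 ± 0.03) and the small heat shock protein HSPB1 (−0.09 ± 0.03) were lower, and the HSPD1 call was lost without KO replicate 1, the HSPB1 call without any one of 3 libraries and with DESeq2. Among 15 mitochondrial chaperone and protease genes 6 were lower and 0 higher, with a median of −0.07. Without the dimerizer 8 of the 15 were lower and 0 higher, with a median of −0.08. The matrix protease gene LONP1 had 71.8, 76.6 and 70.8 CPM in KO and 139, 135 and 130.5 CPM in WT (−0.88 ± 0.04), HSPA9, the mitochondrial HSP70, differed by −0.56 ± 0.03, and DNAJA3, its co-chaperone, by −0.47 ± 0.05.

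Growth control and degradation genes moved in both directions, where 14.5% of all tested genes were lower and 20.1% higher. Of 17 mTORC1 brakes and growth arrest genes, 5 were lower and 3 higher in KO, with a median of −0.03. DDIT4 and SESN2 led the list, followed by EIF4EBP1, a repressor of cap-dependent translation, with 23.8, 23.0 and 21.8 CPM in KO and 103, 87.1 and 89.3 CPM in WT (−2.02 ± 0.08). The AMP kinase subunit genes PRKAA1 (0.19 ± 0.03) and PRKAA2 (0.21 ± 0.08) and the folliculin partner FNIP2 (0.25 ± 0.10) were higher, the last 2 with calls that were lost without KO replicate 2 or without WT replicate 1, among other libraries. FNIP2 was higher in untreated KO cells as well, by 0.72 ± 0.07. DEPDC5, of the GATOR1 complex, was lower in the counts (−0.25 ± 0.07) and at 0.13 on log2(TPM + 1) (limma, adjusted p = 0.75). In autophagy 9 of 22 genes were lower and 7 higher, with a median of −0.04. CALCOCO2, a receptor for cargo, had 54.1, 50.8 and 54.7 CPM in KO and 103, 102 and 99.0 CPM in WT (−0.93 ± 0.05), MAP1LC3B, which coats the autophagosome, differed by −0.57 ± 0.04, and the receptor SQSTM1, also on distal 5q, by −0.51 ± 0.03. ATG12, part of the conjugation machinery, had 131, 136 and 131 CPM in KO and 81.0, 87.3 and 78.3 CPM in WT (0.69 ± 0.04). Lysosome genes were higher in 20 of 29 cases and lower in 1, with a median of 0.18, and they were higher in 20 and lower in 0 in untreated cells too. The peptidase gene TPP1 differed by 0.50 ± 0.04, the lysosomal factor gene GRN by 0.35 ± 0.03, CTSZ, a cathepsin, by 0.35 ± 0.04 and the membrane protein gene CD63 by 0.34 ± 0.04. Limma on log2(TPM + 1) called 12 lysosome genes higher and 5 autophagy genes lower. ATP6V1A, a proton pump subunit from a stretch of chromosome 3q described with the closing observations, was lower (−0.22 ± 0.06) and no longer passed without KO replicate 1 (−0.17).

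Immediate early genes had the highest median of the 36 lists. Of 25 immediate early genes, 14 were higher and 2 lower, with a median of 0.35, where 20.1% of all tested genes were higher. EGR1, a zinc finger factor of the growth factor response, had 373, 361 and 351 CPM in KO and 163, 174 and 197 CPM in WT (1.02 ± 0.09, edgeR adjusted p = 5.24e-13). JUNB, an AP-1 subunit, had 259.8, 266 and 265 CPM in KO and 135, 154 and 164 CPM in WT (0.79 ± 0.04), KLF6 differed by 0.59 ± 0.05 and KLF10 by 0.53 ± 0.04. In untreated cells EGR1 did not separate the genotypes, at 492, 542 and 495 CPM in KO and 488, 532 and 531 CPM in WT. MYC (−0.13 ± 0.04) and KLF2 (−0.25 ± 0.07) were lower in KO, MYC without a call when KO replicate 1 was left out and KLF2 when WT replicate 2 was. Limma on log2(TPM + 1) gave EGR1 a difference of 1.01 with an adjusted p of 0.098 and JUNB 0.79 with 0.082. It called 4 members of the list higher. EGR1 had mean TPM of 176 (SD 5.1) in KO and 86.9 (SD 7.73) in WT at 8 h. The limma spread also draws on the untreated KO libraries with poorly matched TPM, and the part of that here was not tested.

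Of 23 NF-κB and cytokine genes, 13 were higher and 2 lower in KO, with a median of 0.17. IL11, a cytokine of the IL-6 family, had 173, 183 and 194 CPM in KO and 57.7, 68.7 and 79.6 CPM in WT (1.40 ± 0.08). LIF, of the same family, had 294, 294 and 300.1 CPM in KO and 121, 126 and 139 CPM in WT (1.2 ± 0.04). IL1A, an alarmin, was far lower in KO, at 1.32, 1.61 and 1.94 CPM against 9.51, 13.3 and 14.5 CPM in WT (−2.93 ± 0.21), and the signalling adaptor TRAF1 differed by −0.60 ± 0.07. The subunit RELA (0.20 ± 0.04) and the inhibitor NFKBIE (0.24 ± 0.04) were slightly higher. Without KO replicate 2 or WT replicate 1, 7 members were higher, without KO replicate 3, 8. On the TPM scale limma called 1 higher and gave IL11 a difference of 1.35 (adjusted p = 0.063). Interferon response and antigen presentation genes were higher in 11 of 22 cases and lower in 1, with a median of 0.27, and higher in 12 and lower in 0 in untreated cells. HLA-B, which presents peptides, had 110.3, 112 and 123 CPM in KO and 72.5, 72.3 and 80.6 CPM in WT (0.61 ± 0.04). Its light chain gene B2M differed by 0.41 ± 0.03, the peptide transporter gene TAP1 by 0.67 ± 0.06 and IRF9 by 0.55 ± 0.07, while ISG20, an RNA exonuclease, was lower (−0.97 ± 0.19). HLA genes have close relatives, so their reads may be shared among them.

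Ribosome assembly genes were higher in KO by small amounts, in 19 of 32 cases, and lower in 1, with a median of 0.12. NIP7, which helps assemble the large subunit, had 117, 116 and 116 CPM in KO and 91.8, 86.4 and 86.1 CPM in WT (0.40 ± 0.04), NOP2, an rRNA methyltransferase, differed by 0.26 ± 0.04, RRN3, a factor of RNA polymerase I, by 0.27 ± 0.04 and UTP20 by 0.24 ± 0.04. Their KO libraries were all above the WT libraries. FBL, another rRNA methyltransferase, was lower (−0.10 ± 0.04), but its libraries overlapped and it was at 0.03 on log2(TPM + 1) (limma, adjusted p = 0.86). Without KO replicate 2, 11 of the 32 were higher, without WT replicate 3, 12, and with limma on log2(TPM + 1), 1. In untreated cells the list ran the other way, with 1 higher and 13 lower. Of 26 translation factors, 9 were higher and 5 lower, with a median of 0.03, beside 20.1% and 14.5% of all tested genes. EIF2S2, the β subunit of eIF2, had 167, 180.4 and 172 CPM in KO and 362, 357 and 368 CPM in WT (−1.06 ± 0.04), EIF2S3, the γ subunit, differed by −0.42 ± 0.03, and EIF1, which guards start codon choice, by −0.54 ± 0.03. EIF4E, which binds the mRNA cap, had 153, 154 and 156 CPM in KO and 121, 116 and 123 CPM in WT (0.36 ± 0.04). The eIF3 subunit genes EIF3D (0.16 ± 0.03), EIF3B (0.12 ± 0.03) and EIF3A (0.10 ± 0.03) were higher too. Without WT replicate 1, 4 translation factors were higher, without KO replicate 2, 5, and with limma on log2(TPM + 1), 2.

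Of 14 nonsense-mediated decay factors, 5 were higher and 2 lower, with a median of 0.07, and all of these differences were small. The shares over all tested genes were 20.1% higher and 14.5% lower. SMG5 (0.15 ± 0.03), UPF3A (0.11 ± 0.04), RBM8A (0.11 ± 0.04) and EIF4A3 (0.11 ± 0.04) were higher, while SMG6 (−0.25 ± 0.05), the nuclease of the pathway, and SMG9 (−0.20 ± 0.05) were lower. Without any one of 4 libraries (KO replicates 2 and 3, WT replicates 1 and 3), between 1 and 3 were called higher. Of 9 eIF2α kinases and phosphatase subunits, 3 were higher and 2 lower, with a median of 0.02. Beside EIF2AK3 the catalytic subunit genes PPP1CA (0.21 ± 0.03) and PPP1CC (0.11 ± 0.03) were higher, and PPP1R15B, the constitutive partner of the eIF2α phosphatase, was lower at 101, 101 and 98.0 CPM in KO and 129.9, 128 and 130.4 CPM in WT (−0.37 ± 0.04). PPP1CC was at −0.07 on log2(TPM + 1) (limma, adjusted p = 0.61).

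Lipid and energy metabolism differed little as groups, where 20.1% of all tested genes were higher and 14.5% lower. Of 24 genes of cholesterol synthesis and uptake, 9 were higher and 1 lower in KO at 8 h, with a median of 0.07. HMGCS1, which makes HMG-CoA, stood out with 335, 351 and 361 CPM in KO and 155, 169.7 and 181 CPM in WT (1.05 ± 0.05). CYP51A1 (0.26 ± 0.04) and DHCR7 (0.19 ± 0.05), enzymes of the sterol branch, were slightly higher, and MVK, mevalonate kinase, was lower (−0.22 ± 0.08), a call lost without any one of 3 libraries and with DESeq2. On log2(TPM + 1) 1 of the 24 was called higher. In untreated cells 18 of the 24 were higher in KO and 0 lower. Of 19 genes of fatty acid and glycerolipid synthesis, 9 were higher and 3 lower, with a median of 0.08. At 0 h 9 were higher and 0 lower, with a median of 0.13. SREBF1, a lipogenic transcription factor, had 79.5, 84.5 and 79.7 CPM in KO and 117, 124 and 123 CPM in WT (−0.58 ± 0.05), and LPIN2 (−0.29 ± 0.04) and DGAT2 (−0.45 ± 0.09), of triglyceride synthesis, were lower as well. ELOVL5 (0.13 ± 0.03), FADS2 (0.16 ± 0.05), ACLY (0.11 ± 0.03) and FASN (0.09 ± 0.03), enzymes of fatty acid synthesis and remodelling, were higher; without KO replicate 2, 1 gene of the list was higher, without WT replicate 3, 2, without WT replicate 1, 3, and with limma on log2(TPM + 1), 1.

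Of 23 glycolysis genes, 8 were higher and 4 lower, with a median of 0.01, beside 20.1% and 14.5% of all tested genes. ENO2 had 51.7, 50.8 and 49.5 CPM in KO and 33.9, 35.2 and 37.1 CPM in WT (0.51 ± 0.06), PFKFB3, which makes an activator of glycolysis, differed by 0.39 ± 0.04, PFKM by 0.38 ± 0.05 and the glucose transporter gene SLC2A1 by 0.30 ± 0.04, and 5 of the list were called higher by limma on log2(TPM + 1). PDK1, which holds pyruvate back from mitochondria, was lower (−0.56 ± 0.07), and ENO1 (−0.11 ± 0.02), LDHA (−0.11 ± 0.03) and LDHB (−0.08 ± 0.02) slightly so. Of 31 nuclear-encoded respiratory chain genes, 4 were higher and 3 lower, with a median of 0.03, and with any one library left out 1 or 2 were called higher. NDUFA4 was the member with the smallest adjusted p, at 113, 116 and 117 CPM in KO and 94.1, 95.3 and 108 CPM in WT (0.22 ± 0.04). NDUFV1 (−0.14 ± 0.04), ATP5G1 (−0.27 ± 0.08) and COX5B (−0.11 ± 0.04) were lower; none of the 3 passed without KO replicate 3. Of 13 transcripts of the mitochondrial genome, 7 were lower and 2 higher, with a median of −0.08. Without the filter on low counts 4 were lower, and 11 in a fit of the 6 libraries with the replicate number as a block. At 0 h 6 of the 13 were lower and 2 higher, with a median of −0.07. MT-ND4 differed by −0.18 ± 0.02, MT-ND2 by −0.18 ± 0.03 and MT-ND4L by −0.19 ± 0.03, all complex I subunits, while MT-CO1, of complex IV, was higher by 0.09 ± 0.02.

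Most genes of the cell cycle were lower in KO by modest amounts. Of 41 DNA replication and S phase genes, 35 were lower and 0 higher, with a median of −0.34. MCM2, a helicase subunit that lies on the chromosome 3q stretch, had 67.5, 62.2 and 61.5 CPM in KO and 111, 109.6 and 115 CPM in WT (−0.81 ± 0.05). CDC6, which loads that helicase, had 68.9, 65.8 and 69.7 CPM in KO and 115, 113 and 116 CPM in WT (−0.75 ± 0.05), MCM6 differed by −0.66 ± 0.05 and TK1, thymidine kinase, by −0.48 ± 0.05. Their KO libraries all lay below the WT libraries. Of 30 mitosis and G2/M genes, 26 were lower and 1 higher, with a median of −0.28. FOXM1, the transcription factor of G2 genes, had 171, 180.4 and 165 CPM in KO and 234, 219.8 and 226 CPM in WT (−0.40 ± 0.04), the spindle factor gene TPX2 differed by −0.42 ± 0.04, the checkpoint gene MAD2L1 by −0.50 ± 0.06 and CCNB2 by −0.43 ± 0.05. UBE2C, a ubiquitin conjugase of mitotic exit, was higher by 0.24 ± 0.05. In untreated cells 41 of the 41 replication genes and 27 of the 30 mitosis genes were already lower in KO, and 0 were higher. By limma on log2(TPM + 1), 16 replication genes and 1 mitosis gene were called lower (FOXM1 −0.42, adjusted p = 0.10).

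The p53 pathway was lower in 11 of 20 genes (7 with limma on log2(TPM + 1)) and higher in 2, with a median of −0.19. PHLDA3, an inhibitor of AKT, had 112, 111 and 109 CPM in KO and 165, 156 and 156 CPM in WT (−0.52 ± 0.04). TNFRSF10B, the death receptor DR5, had 203, 213 and 209.5 CPM in KO and 275, 297 and 300.4 CPM in WT (−0.48 ± 0.04), and PMAIP1, the BH3 protein NOXA, differed by −0.43 ± 0.04. ZMAT3 (0.31 ± 0.04) and the nuclease gene AEN (0.09 ± 0.03) were higher, AEN without a call when KO replicate 2, WT replicate 1 or WT replicate 3 was left out. Among 23 BCL2 family and death receptor genes 6 were lower and 5 higher, with a median of −0.03. The shares over all tested genes were 14.5% lower and 20.1% higher. Limma on log2(TPM + 1) called 3 of the 23 lower. BBC3, the BH3 protein PUMA, differed by −0.60 ± 0.09 and BCL2A1, an anti-apoptotic member, by −0.64 ± 0.14, while BCL2L2 (0.38 ± 0.05), BAK1 (0.33 ± 0.06), BOK (0.22 ± 0.05) and BCL2L1 (0.19 ± 0.05) were higher.

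Extracellular matrix genes moved in both directions, with 14 of 32 higher (6 with limma on log2(TPM + 1)) and 7 lower and a median of 0.11. TNC, the matrix glycoprotein tenascin C, had 146, 144 and 151 CPM in KO and 383, 385 and 395 CPM in WT (−1.40 ± 0.03). LUM, a small proteoglycan, had 31.1, 27.8 and 30 CPM in KO and 11.9, 11 and 12.3 CPM in WT (1.34 ± 0.09). CYR61, a matricellular factor induced by mechanical signals, differed by 0.60 ± 0.04, the collagen COL6A1 by 0.56 ± 0.05 and SPARC, a collagen-binding protein, by 0.31 ± 0.02. LOX, which cross-links collagen (−0.72 ± 0.06), COL11A1 (−0.91 ± 0.09) and FBN2 (−0.24 ± 0.03) were lower. Of 24 genes of COPII export and Golgi trafficking, 6 were lower and 5 higher, with a median of 0.03, where 14.5% of all tested genes were lower and 20.1% higher. GOLGB1 (−0.40 ± 0.05) and COPG1 (−0.30 ± 0.04), both from the 3q stretch, SEC16A (−0.26 ± 0.04) and MCFD2 (−0.18 ± 0.03) were lower, and SEC24B (0.28 ± 0.07), SEC23A (0.21 ± 0.04), GOLGA2 (0.16 ± 0.04) and SAR1A (0.09 ± 0.03) higher, SAR1A without a call when KO replicate 2, WT replicate 1 or WT replicate 3 was left out. Of 9 osteoblast and mesenchymal markers tested, 3 were lower and 2 higher, and of 8 epithelial markers 2 were lower and 2 higher, with KRT18 (0.10 ± 0.03) higher. The osteoblast transcription factor RUNX2 had 34.7, 35.6 and 33.5 CPM in KO and 46.6, 47.9 and 48.5 CPM in WT (−0.47 ± 0.06), and the bone matrix gene SPP1 had 0.743, 0.849 and 1.36 CPM in KO and 3.52, 3.08 and 3.03 CPM in WT (−1.66 ± 0.24). CDH1 (E-cadherin) had 1.90, 2.21 and 1.72 CPM in KO and 6.22, 4.72 and 7.27 CPM in WT (−1.65 ± 0.19). CLDN4, a claudin of tight junctions, was higher with 6.36, 6.28 and 6.61 CPM in KO and 2.11, 3.27 and 2.77 CPM in WT (1.21 ± 0.17). ESRP1, a splicing factor of epithelial cells, had 1 count in KO and 60 in WT, a WT-to-KO ratio of 73.0 with a 95% counting interval of 12.6 to 2930.

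**Figure D3:**
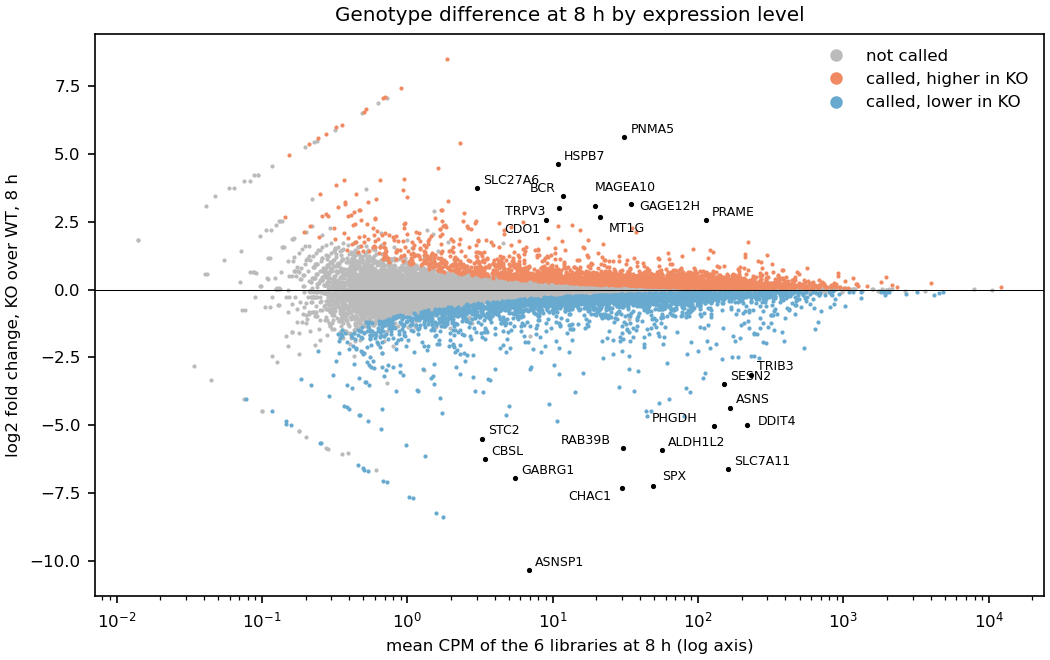
Log2 difference, KO over WT, of the 19043 tested genes against their mean CPM over the 6 libraries at 8 h (log axis), coloured by call, with the most changed genes and 4 further stress genes named. Apart from ASNSP1, which had no counts in KO, the named lower genes reach a log2 difference of −7.30 (CHAC1), and the named higher genes reach 5.63 (PNMA5); the slanted edges at low CPM are genes with no counts in a group.

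The most reduced genes of all, in the plot of difference against level, joined metabolic genes with secreted and neuronal ones. SPX, a peptide hormone gene, had 0.495, 0.424 and 0.934 CPM in KO and 103, 95.5 and 96.5 CPM in WT (−7.25 ± 0.13, edgeR adjusted p = 1.15e-36). ALDH1L2, a mitochondrial folate enzyme, had 1.65, 1.36 and 2.37 CPM in KO and 118, 111 and 105 CPM in WT (−5.92 ± 0.10). RAB39B, a small GTPase of vesicle traffic, had 0.908, 1.19 and 1.01 CPM in KO and 61.1, 62.2 and 58.1 CPM in WT (−5.86 ± 0.13). In each of these 3 genes the KO libraries sat at a few CPM or less. STC2, a secreted glycoprotein, had 0.248, 0.170 and 0 CPM in KO and 6.22, 5.71 and 7.27 CPM in WT (−5.49 ± 0.40). The GABA receptor subunit gene GABRG1 had 3 counts over the KO libraries and 342 over the WT libraries, a WT-to-KO ratio of 139 with a 95% counting interval of 47.1 to 676. ASNSP1, a pseudogene of ASNS, had 0 counts in KO and 429 in WT, at least 174-fold lower in KO when the 0 is read as 3 counts over the group. CBSL, a near-identical copy of the cystathionine synthase gene CBS, had 3 counts in KO and 210 in WT, a ratio of 85.1 (28.7 to 416). Reads of both copies may come from ASNS and CBS, so they are not separate evidence. Such bounds and intervals account for counting error alone.

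The genes most elevated in KO were of another kind, several of them germline antigens, and all 10 were called higher in untreated KO cells as well. PNMA5, of the paraneoplastic antigen family, had 59.4, 60.4 and 63.3 CPM in KO and 1.06, 1.54 and 1.04 CPM in WT at 8 h (5.63 ± 0.13), with a log2 difference of 6 at 0 h. PRAME, an antigen of tumours and testis, had 190.5, 200.3 and 192 CPM in KO and 30.4, 32.7 and 33.9 CPM in WT (2.58 ± 0.05). MAGEA10, another such antigen, had 36.9, 35 and 33.6 CPM in KO and 3.99, 3.99 and 4.33 CPM in WT (3.09 ± 0.12). PRAME and MAGEA10 belong to the cancer-testis antigens. HSPB7, a small heat shock protein, differed by 4.63 ± 0.21 at 8 h and by 4.27 at 0 h. The fatty acid transporter gene SLC27A6 differed by 3.74 ± 0.31 and 3.69, the GTPase regulator BCR by 3.45 ± 0.13 and 2.52, the ion channel gene TRPV3 by 2.99 ± 0.17 and 1.86, and CDO1, which oxidises cysteine, by 2.55 ± 0.15 and 2.28, at 8 h and 0 h in each case. GAGE12H (3.15 ± 0.13) and the metallothionein gene MT1G (2.66 ± 0.16) belong to families of near-identical copies, and their counts may be split among them.

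Setting the 8 h difference beside that of untreated cells shows which calls were also made without the dimerizer. Such an overlap depends on the threshold at each time. At 0 h 2213 genes were higher in KO (11.6%) and 2267 lower (11.9%), at least 2-fold in 1.81% and 0.698%. Of the 2769 genes lower at 8 h, 1027 were also lower at 0 h, which is 37.1% of the 8 h list and 45.3% of the 0 h list. Of the 3825 higher at 8 h, 1232 were also higher at 0 h, 32.2% of the 8 h list and 55.7% of the 0 h list. The test of the difference itself, the genotype difference at 8 h minus that at 0 h, called 2146 genes positive (11.3%) and 1331 negative (6.99%). Differences of at least 2-fold made up 0.368% of tested genes in the positive and 1.89% in the negative direction. Of the 2769 genes lower at 8 h, 1005 had a more negative difference than at 0 h and 86 a more positive one. Of the 3825 higher at 8 h, 1517 had a more positive difference and 32 a more negative one. Among the 549 genes lower by at least 2-fold at 8 h, 286 had a more negative difference at 8 h than at 0 h and 169 were called lower at 0 h. Among the 326 genes higher by at least 2-fold, 53 had a more positive difference at 8 h and 219 were called higher at 0 h. These lists were chosen by 8 h values that also enter the difference between the times. A lean in the list's own direction is thus partly built in and is not separate evidence, and the size of that part was not tested. The positive count of 2146 was 1282 without WT replicate 1 at 0 h, 1345 without KO replicate 2 at 0 h, 1341 or 1368 without WT replicate 1 or 3 at 8 h, and 1316 without KO replicate 2 at 8 h. On log2(TPM + 1) with limma 662 genes were positive and 841 negative, so the split of directions was turned round. The deposited counts of each of the 3 untreated KO libraries correlated better with the TPM column of another untreated KO library than with their own (0.501 against 0.968 for the third), and the part of this in the split was not tested.

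**Figure D4:**
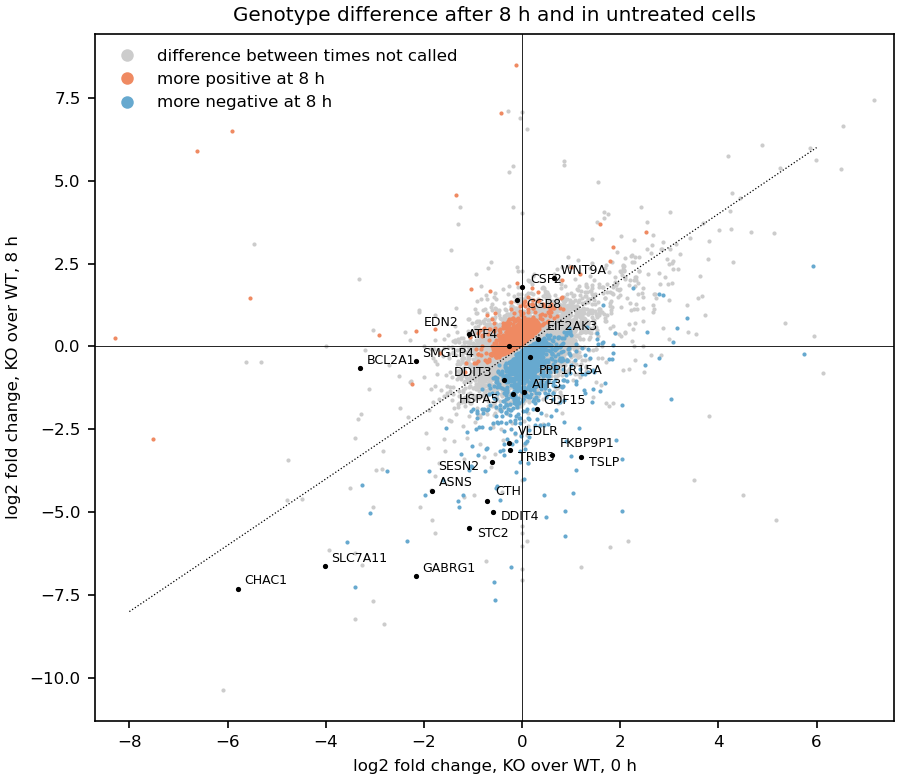
Log2 difference, KO over WT, of each tested gene at 8 h (vertical) against that at 0 h (horizontal), coloured where the difference between the times was called. The dotted line marks equal differences; CHAC1 and SLC7A11 were already low in KO at 0 h, whereas TRIB3 and VLDLR were at −0.25 and −0.26 at 0 h and DDIT4 at −0.60, all far lower at 8 h.

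The plot of both times holds genes that were low in KO at both and genes that were low mainly at 8 h. CHAC1 was lower in KO at 0 h as well (−5.79 ± 0.36), with 0, 0.356 and 0.0646 CPM in KO and 8.50, 8.96 and 7.30 CPM in WT, and its difference did not change with a call on the counts (−1.51), though it did on log2(TPM + 1) with limma (−2.76, adjusted p = 1.8e-09), where the untreated KO columns match their own counts less well than those of another library. SLC7A11 had 2.70, 2.14 and 1.81 CPM in untreated KO and 36.3, 36 and 32.7 CPM in untreated WT (−4.02 ± 0.12). TRIB3 (−0.25 ± 0.08), VLDLR (−0.26 ± 0.08) and DDIT4 (−0.60 ± 0.08) were less than 2-fold lower at 0 h. DDIT4 had 42.3, 45.1 and 43.8 CPM in untreated KO and 65.9, 67.9 and 65.8 CPM in untreated WT, so the KO level after 8 h was below both. Over all tested genes the difference was more positive at 8 h in 11.3% and more negative in 6.99%. Of the ISR list 23 of 27 members had a more negative difference at 8 h and 0 a more positive one. For amino acid synthesis 15 of 24 were more negative and 3 more positive, for amino acid transporters 14 and 1 of 20, and for cytosolic tRNA synthetases 12 and 3 of 20. The cell cycle lists, also lower at both times, had 10 of 41 replication genes more positive and 2 more negative, and 6 of 30 mitosis genes more positive and 0 more negative. Ribosome biogenesis genes were more positive at 8 h in 19 of 32 cases, heat shock genes in 15 of 22 and immediate early genes in 14 of 25, with 0, 1 and 0 more negative.

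Over all genes, 107 were lower at 8 h and higher at 0 h, and 214 were higher at 8 h and lower at 0 h. GDF15 was in the first set, with 31.9, 35.9 and 28.5 CPM in untreated KO and 29, 23.2 and 24.9 CPM in untreated WT (0.30 ± 0.09), as were HMOX1, MAP1LC3B (0.21 ± 0.04 at 0 h), TNFRSF10B (0.14 ± 0.04), PMAIP1 (0.18 ± 0.05) and RUNX2 (0.36 ± 0.06). In the second were SLC7A6 (−0.12 ± 0.04 at 0 h), KARS (−0.12 ± 0.03), DNAJA1 (−0.10 ± 0.03), EIF4E (−0.15 ± 0.04), EIF3B (−0.19 ± 0.03), RBM8A (−0.19 ± 0.04), EIF4A3 (−0.15 ± 0.04), PPP1CC (−0.11 ± 0.03), SAR1A (−0.11 ± 0.03) and KRT18 (−0.24 ± 0.03), all by small amounts, and on log2(TPM + 1) with limma the 8 h call remained for EIF4E and DNAJA1.

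**Figure D5:**
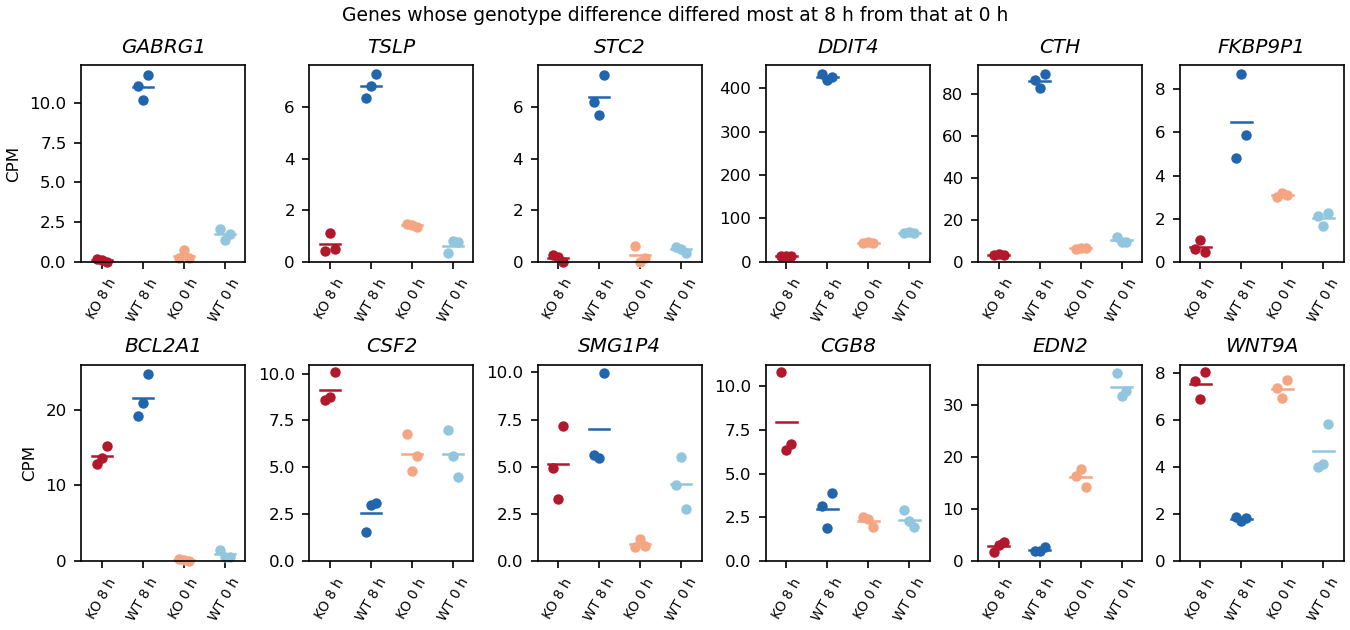
CPM of the 6 genes with the most negative (top) and the 6 with the most positive (bottom) called difference at 8 h minus 0 h, taken from genes whose highest group averaged 5 CPM or more, with a point for each library and a line at the mean, in KO and WT at 8 h (dark) and KO and WT at 0 h (light). In the top panels WT at 8 h stands above the other groups; in the bottom panels CSF2, CGB8 and WNT9A are higher in KO than WT at 8 h, while BCL2A1, SMG1P4 and EDN2 are lower in KO at 0 h.

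The plot of 12 genes shows levels behind these contrasts for the genes whose difference moved most among called genes whose highest group averaged 5 CPM or more. TSLP, an epithelial cytokine, had 0.413, 1.10 and 0.503 CPM in KO and 6.34, 6.80 and 7.27 CPM in WT at 8 h, and 1.45, 1.42 and 1.36 CPM in KO and 0.329, 0.788 and 0.773 CPM in WT at 0 h. The order of the genotypes thus turned round. CTH had 6.13, 6.5 and 6.46 CPM in untreated KO and 11.9, 9.56 and 9.62 CPM in untreated WT, a small gap beside the one at 8 h. FKBP9P1, a pseudogene whose reads may belong to its parent FKBP9, had 0.578, 1.02 and 0.431 CPM in KO and 4.81, 8.71 and 5.89 CPM in WT at 8 h. CSF2, which encodes GM-CSF, had 8.58, 8.74 and 10.1 CPM in KO and 1.53, 2.99 and 3.12 CPM in WT at 8 h (1.80 ± 0.23), against 6.75, 4.81 and 5.62 CPM in KO and 6.98, 5.62 and 4.50 CPM in WT at 0 h. WNT9A, a WNT ligand, had 7.68, 6.88 and 8.04 CPM in KO and 1.88, 1.72 and 1.82 CPM in WT at 8 h (2.06 ± 0.20), and CGB8, a gonadotropin subunit copy, had 10.8, 6.37 and 6.68 CPM in KO and 3.17, 1.90 and 3.90 CPM in WT (1.40 ± 0.22). BCL2A1 was lower in KO at 8 h, with 12.8, 13.7 and 15.2 CPM in KO and 19.1, 20.9 and 24.8 CPM in WT, and at 0 h it had 3 counts over the KO libraries and 36 over the WT libraries. The endothelin gene EDN2 (0.36 ± 0.28) and the pseudogene SMG1P4 (−0.45 ± 0.28) overlapped between the genotypes at 8 h and did not pass (edgeR adjusted p = 0.353 and 0.233).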

How the data were processed

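Total RNA was isolated with magnetic beads and made into directional libraries from 1000 ng of input, which were sequenced on a NovaSeq instrument, per the labels' protocols. Per the submitters' processing notes, the authors used FastQC 0.11.5, Salmon 0.9.1 and the GRCh38 build. Which annotation release, strand option or read trimming was used, and how transcripts were summed to genes, is not given in these sources. The deposited tables hold estimated counts per gene, of which 72 to 78.9% per library were whole numbers (within 1e-06), and TPM values per gene for the same 36 libraries. The smallest deposited TPM in every column was 0.102292, so a gene with no reads has that value. In 33 of 36 libraries the deposited TPM matched their own counts best, and the exceptions were the 3 untreated KO libraries, whose TPM enters only the alternatives. In limma the spread of each gene came from all 36 TPM columns, so its adjusted p-values at 8 h draw on those 3 as well.

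Samples were grouped by genotype, treatment and time from the labels. Estimated counts were rounded to whole numbers and scaled by TMM, genes were filtered with filterByExpr, and 12 group means were fitted to all 36 libraries with edgeR 4.0.16 in R 4.3.3, so that the groups share an estimate of the spread. Quasi-likelihood F-tests gave KO against WT at 8 h, the same at 0 h, and the difference between them. Each set of p-values was adjusted over 19043 genes by Benjamini-Hochberg at 0.05, and a standard error is the absolute log2 difference divided by the square root of F. Replicates of a group differed by more than counting noise, with a chi-square per degree of freedom of 1.36 to 2.07 over pairs, and none was merged. A gene with 3 counts or fewer over a group has a ratio of summed counts with an exact 95% interval or a bound at 3 counts. Total counts ranged from 8608783 to 16265056 over the 36 libraries.

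Genes were named by a rule: ATF4 and 13 stress response genes, the 10 higher and 10 lower called genes of largest difference with 5 CPM or more in the higher group and no overlap, up to 4 called members per direction of each list by adjusted p, and the 6 called genes of largest difference between the times in each direction, with 5 CPM or more in the highest group. Others are said to be chosen after their values were seen. The comparison, the members and the gene lists were chosen with earlier results of these data known. Positions are from GENCODE 29, matched by gene ID for 57068 of 57665 IDs, and promoters from RefSeq (GRCh38.p14). Gene symbols are those of the tables, where 1911 symbols are shared by several IDs. Alternatives used DESeq2 1.42.0 and limma 3.58.1, and the statistics were tested on simulated counts. A few genes that the rule would name are not reported here.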

Additional observations from a re-analysis of the deposited data

Results flagged for a closer look

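The genotype difference at 8 h differed from the one in untreated cells by a test of the difference itself (edgeR's quasi-likelihood test on both pairs of groups, Benjamini-Hochberg adjusted) for 2146 genes in the positive and 1331 in the negative direction. Both counts, and each gene below, are listed because the effect of genotype was not the same at 8 h and 0 h.

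Among the stress and amino acid genes the log2 difference at 8 h minus that at 0 h was −4.39 for DDIT4, −3.95 for CTH, −2.88 for SESN2, −2.88 for TRIB3, −2.66 for VLDLR, −2.61 for SLC7A11, −2.52 for ASNS, −2.34 for ALDH1L2, −2.17 for GDF15, −1.93 for PHGDH, −1.41 for ATF3, −1.26 for HSPA5, −0.64 for DDIT3 and −0.49 for PPP1R15A. It was 0.26 for ATF4. On log2(TPM + 1) with limma DDIT3 (−0.13, adjusted p = 0.85), ATF3 (−0.58, adjusted p = 0.59) and PPP1R15A (−0.17, adjusted p = 0.70) did not pass.

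The other strongly negative genes were TSLP at −4.54, STC2 at −4.41, FKBP9P1 at −3.89, SPX at −3.84 and RAB39B at −3.51. GABRG1 at −4.77 rests on 3 counts in KO at 8 h, and STC2 was −3 and no longer called without KO replicate 1 at 0 h. The positive genes were BCL2A1 at 2.66, SMG1P4 at 1.72, CSF2 at 1.81, CGB8 at 1.5, EDN2 at 1.44, WNT9A at 1.41, TRPV3 at 1.13, BCR at 0.93 and PRAME at 0.79. BCL2A1 rests on 3 counts in KO at 0 h and was not called without KO replicate 3 (1.94) or WT replicate 1 (1.87) at 0 h, and SMG1P4 was lost without any of 4 libraries (1.39 to 1.60).

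Genes called in opposite directions at the 2 times had differences of −1.56 for HMOX1, −0.83 for RUNX2, −0.77 for MAP1LC3B, −0.62 for TNFRSF10B and −0.61 for PMAIP1, which were lower in KO at 8 h. Among those higher in KO at 8 h the difference was 0.51 for EIF4E, 0.40 for SLC7A6, 0.36 for DNAJA1, 0.34 for KRT18, 0.30 for EIF3B, 0.30 for RBM8A, 0.26 for EIF4A3, 0.23 for PPP1CC, 0.21 for SAR1A and 0.20 for KARS.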

How the results depend on the processing

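Across 37 counts (calls in each contrast and members of each list in their main direction) 453 alternative values lay within 1.5 times the value reported and 120 did not. ISR, amino acid synthesis, transporter, cytosolic tRNA synthetase and bZIP counts stayed within it under every alternative run. A required change above 1.5-fold left 225 genes higher and 422 lower at 8 h, 28 positive and 216 negative in the difference between the times, and 217 higher and 82 lower at 0 h. It left 4 ER genes, 3 genes each of NRF2, mTORC1 brakes (lower) and immediate early (higher), 2 each of NF-κB and DNA replication, 1 each of mitochondrial chaperones, autophagy, cholesterol and extracellular matrix, and 0 of mitochondrial tRNA synthetases, heat shock, lysosome, interferon, ribosome biogenesis, translation factors, decay factors, lipid synthesis, glycolysis, respiratory chain (nuclear and mitochondrial), mitosis, p53, BCL2 family, eIF2α kinases and export.

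Limma on log2(TPM + 1) called 1542 higher and 1515 lower at 8 h, 662 and 841 in the difference between the times, and 801 and 641 at 0 h; with 0.1 added in place of 1 these were 1525 and 1502, 632 and 787, and 703 and 603. Without the third untreated KO column they were 637 and 816 for the difference and 1033 and 990 at 0 h. With either pseudocount it called 16 DNA replication genes, 12 lysosome, 7 p53, 6 extracellular matrix, 5 heat shock, 5 autophagy, 4 immediate early, 3 BCL2 family, 2 translation, 2 respiratory chain and 1 each of mitochondrial tRNA synthetase, NF-κB, ribosome biogenesis, decay, cholesterol, lipid and mitosis genes, and 5 (4 with 0.1) glycolysis genes. DESeq2 called 3 decay and 2 respiratory chain genes higher, no filter on low counts 4 mitochondrial transcripts lower, and a fit of the contrast's libraries alone 11 ER genes lower, 1 decay gene and 1 respiratory chain gene higher. The limma comparison at 8 h was not fitted without the third untreated KO column, which enters its spread. The part of that column in calls lost on TPM was not tested.

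The share of 8 h calls that were higher in KO was 58.0% and ranged from 50.7 to 59.1% when a library was left out; it was 51.2% with the contrast's libraries alone, 50.4% on TPM and 34.8% at the required 1.5-fold change. For the difference between the times the positive share of 61.7% became 44.0% on log2(TPM + 1), 44.5% with 0.1, 43.8% without the third column, 11.5% at 1.5-fold and 48.2 to 62.6% with a library left out. At 0 h the higher share was 49.4% and 72.6% at 1.5-fold.

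With each library left out in turn, 2840 to 3542 genes were higher and 2364 to 2766 lower at 8 h, 1628 to 2082 and 1703 to 2052 at 0 h, and 1282 to 2057 positive and 1110 to 1467 negative for the difference between the times. Lists that moved ranged from 1 to 3 mitochondrial tRNA synthetases, 7 to 15 NF-κB, 11 to 16 ribosome biogenesis, 4 to 8 translation, 1 to 4 decay, 1 to 8 lipid and 1 to 2 respiratory chain genes.

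The replicate number as a block gave 3840 genes higher and 2765 lower at 8 h, 2177 positive and 1349 negative for the difference, and 2241 and 2291 at 0 h. Same-numbered KO and WT wells at 8 h correlated at 0.141, 0.055 and 0.131 over 10522 genes, each well best with its own number, a hint from the data and not the design. At 0 h the same correlations were 0.098, −0.007 and −0.068, and the wells did not each correlate best with their own number, so the numbers were not taken as pairs. The block with the contrast's libraries alone called 12 ER and 11 mitochondrial transcripts lower and 2 decay and 2 respiratory chain genes higher.

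For single genes at 8 h, 2856 of 3300 values kept the call, 437 lost it, 1 gained it and 6 turned direction. Leaving aside the required 1.5-fold change, 35 of 220 genes lost a call in some alternative on the counts. DEPDC5 turned to 0.13, FBL to 0.03 and PPP1CC to −0.07 on log2(TPM + 1) and with 0.1, and the PPP1CC difference between the times to −0.20 in both and −0.06 without the third column; the cause was not tested. Depth limits the genes with few counts in KO, CHAC1, SPX, STC2 and GABRG1 among them, whose size is less certain than their direction.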

Other observations

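Many genes of 2 stretches of the genome were lower in KO at both times; the stretches were chosen after their values were seen. On chromosome 3q, chr3:98497912-134250744 (CLDND1 to RYK, GENCODE 29), 111 of 202 tested genes were lower and 7 higher at 8 h, and 110 were lower and 3 higher at 0 h, 87 of them lower at both. Over its 121 genes above 10 CPM the median log2 difference was −0.30 at 8 h and −0.32 at 0 h. At the end of chromosome 5q, chr5:178602664-181331839 (CLK4 to AC138035.3), 36 of 42 tested genes were lower and 0 higher at 8 h, and 35 were lower and 0 higher at 0 h. Its 26 genes above 10 CPM were all below 0 at 8 h, with medians of −0.46 at 8 h and −0.50 at 0 h. Over all 10314 genes above 10 CPM the median was 0.05 at 8 h and −0.01 at 0 h, and 17.9% were called lower at 8 h. Of the list members, ALDH1L1, ATG3, ATP6V1A, MCM2, COPG1 and GOLGB1 lie in the first stretch and SQSTM1 and CANX in the second. Without the tested genes of both, 3818 genes were higher and 2622 lower at 8 h.

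Called shares differed by gene class. Of 1283 lincRNA genes tested, 5.85% were higher and 11.5% lower in KO at 8 h, both below the 20.1% and 14.5% of all tested genes. By at least 2-fold, 26 of the 1283 were higher and 71 lower, where 1.71% and 2.88% of all tested genes were. The part of low counts in these shares was not tested. Of 391 processed pseudogenes 5.12% were higher and 6.14% lower, and of 357 transcribed unprocessed pseudogenes 4.2% were higher and 18.5% lower.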
